A study of Homo sapiens with 6 samples.

Results

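The genes described here were 9 genes of the NRF2 antioxidant programme and of the defence against ferroptosis: NFE2L2, NQO1, HMOX1, GCLC, GCLM, SLC7A11, TXNRD1, SRXN1 and GPX4. They were found by symbol among 61016 genes, after the transcripts on file were joined to the GENCODE annotation on GRCh37 and summed per gene, and all 9 were present and tested. RNA came from MDA-MB-231, a line of human triple-negative breast cancer, made resistant to paclitaxel (PTX) and sorted by the activity of aldehyde dehydrogenase (ALDH). Stem-like ALDH+ cells, named BCSC for breast cancer stem cells, gave 3 libraries and ALDH- cells, named non-BCSC, gave the other 3. By the study's account both fractions came from the PTX-resistant line, while the sample titles name resistance for BCSC only. Whether the fractions were equally resistant is not given in the labels. Groups were read from the sample titles, since the cell type label named stem cells for every library. ALDH activity is the gate here, so the groups are fractions of 1 cell line and no PTX-sensitive parent line was among the samples. Nothing in the labels says that replicates came from separate cultures, so every p-value below measures only the spread between these samples.

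NRF2, the protein encoded by NFE2L2, is a transcription factor that KEAP1 marks for destruction in unstressed cells. When electrophiles or oxidants modify KEAP1, NRF2 accumulates, pairs with small MAF proteins and binds antioxidant response elements near genes for glutathione synthesis, thioredoxin reduction, quinone reduction and heme breakdown. Ferroptosis is an iron-dependent death through lipid peroxidation, which GPX4 holds in check by using the glutathione that SLC7A11, GCLC and GCLM help to supply.

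The core letters of the antioxidant response element, TGACNNNGC, were searched on both strands of the RefSeq promoter windows (GRCh38.p14, from 250 bases before to 50 bases after a start). A window was at hand for 7 of the 9 genes, with 11 windows in all, while HMOX1 and SLC7A11 had no entry. The letters were found in 3 of these 11 windows, which belonged to 2 genes, GCLM and TXNRD1. Among all 35116 promoter windows 4687, or 13.3%, held them, so a match is a description and not a binding site. GCLM and TXNRD1 were among the genes that differed between the fractions, but so were GCLC, NQO1 and NFE2L2, whose windows held no match. Elements further from a start than these windows reach were not searched. Capitals mark the matched letters, each sequence is 30 bases long and runs 5′ to 3′ on the gene's strand, and a match on the opposite strand reads as the reverse complement. The GCLM match lay 34 bases before the start at chr1:93909445-93909474 on the minus strand. The TXNRD1 matches lay on the plus strand, at chr12:104215670-104215699 and chr12:104215761-104215790 before the first start (99 and 8 bases) and at chr12:104286920-104286949 before another start (102 bases).
GCLM, opposite strand: tacgatttctGCTTAGTCAttgtcttccag
TXNRD1, gene strand: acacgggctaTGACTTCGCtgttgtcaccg
TXNRD1, opposite strand: gcgtccttcgGCTCCGTCAgttcccacagg
TXNRD1, other start, opposite strand: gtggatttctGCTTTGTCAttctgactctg

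Levels are given in CPM (counts per 1e6 counts of a library), with library totals scaled by TMM, which balances the bulk of genes between libraries. A gene passed the test at a Benjamini-Hochberg (BH) adjusted p under 0.05 in edgeR's quasi-likelihood test, and was called over 2-fold where its log2 fold change (BCSC over non-BCSC) was also beyond 1 in size. Of the 9 genes, 5 passed and all 5 were lower in BCSC: GCLC, NQO1, GCLM, NFE2L2 and TXNRD1. For comparison, 14.6% of all 20442 tested genes passed as lower and 15.3% passed as higher. None of the 9 passed as higher by edgeR, none did so at an unadjusted p under 0.05, and DESeq2 also gave 0. Past the 2-fold line, 2 of the 9 were lower (GCLC and NQO1, against 11.3% of all genes) and 0 were higher (against 8.85%). In 5 of the 9 genes the 3 BCSC libraries lay wholly below the 3 non-BCSC libraries, and non-overlap in either direction held for 52.1% of all tested genes, so it sets the 9 apart little. The median log2 fold change was -0.35 over the 9 genes and -0.05 over all genes tested. These were bulk libraries, in which fewer cells expressing a gene and less RNA per cell cannot be told apart.

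**Figure D1:**
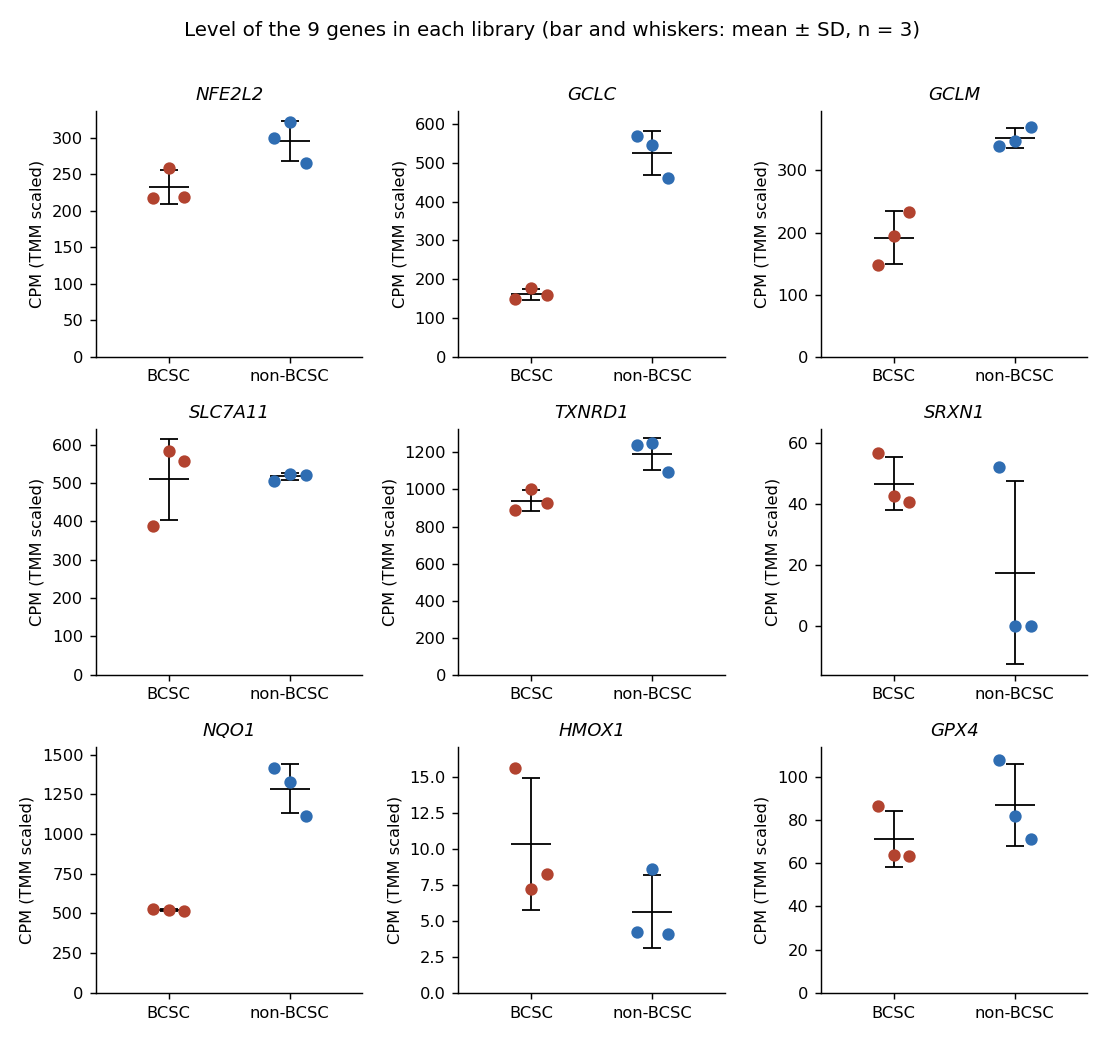
Level of each of the 9 genes (y axis, CPM with TMM scaling, from 0 or below) in the 3 BCSC libraries (red points) and the 3 non-BCSC libraries (blue points), with the mean and SD drawn in black. GCLC, NQO1, GCLM, NFE2L2 and TXNRD1 show every BCSC point below every non-BCSC point, whereas SLC7A11, HMOX1, GPX4 and SRXN1 overlap and non-BCSC replicates 2 and 3 lie at 0 for SRXN1.

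Library depth and background differed between the fractions and touch these results. Totals ran from 15925943 to 21215352 counts per BCSC library and from 9898588 to 12263667 per non-BCSC library. Summed counts of 407 olfactory receptor genes, which this cell type is not expected to use, ran from 39.6 to 152 CPM in BCSC and from 540 to 1230 CPM in non-BCSC. Taken per kb, that background would make up at most 1.11% of the counts of any of the 9 genes in BCSC except HMOX1 (at most 4.58%). In non-BCSC it would make up 0.121% to 7% for the genes other than HMOX1, for which it came to between 20.1% and 69.4%. No share could be taken for SRXN1 in non-BCSC replicates 2 and 3, where its count was 0. The identity markers of the line (VIM, CD44, AXL, CAV1 and EGFR) summed to 6509 to 7618 CPM in BCSC and 4130 to 5588 CPM in non-BCSC, and 3 of the 5 passed as higher (CD44, AXL and CAV1). Luminal markers summed to 46.7 to 54.4 and 57.8 to 75.5 CPM, and 1 of the 5, PGR, passed as lower. That background would make up 70.8% to 117% of the PGR counts in non-BCSC. Leukocyte and endothelial markers summed to 22.2 to 36.4 and 66.1 to 102 CPM. PTPRC and CDH5 were lower and CD68 was higher in BCSC among their 3 tested members. In non-BCSC the background would make up 50.9% to 92.4% of the PTPRC counts and 3.96% to 16.7% of those of CDH5. The part of these markers in the results was not tested.

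NFE2L2 (ENSG00000116044, GRCh37 chr2:178083395-178257484, minus strand) stood at 218, 259 and 219 CPM in BCSC and at 300, 321 and 266 CPM in non-BCSC. The fractions did not overlap, but BCSC replicate 2 (259 CPM) lay close to non-BCSC replicate 3 (266 CPM). Its log2 fold change was -0.35 (SE 0.11, BH-adjusted p = 0.0457 by edgeR), the weakest of the 5 calls. It was lost when any single library was left out, with edgeR adjusted p between 0.0547 and 0.218 in those 6 fits. The RNA level says nothing of the amount of NRF2 protein, which is set largely by its turnover. NFE2L2 counts were spread over 31 of 65 annotated transcripts, and the opposite strand holds HNRNPA3, whose counts came to 286% of those of NFE2L2. On the same strand ENSG00000213963 overlaps the span of NFE2L2, with counts of 11.7% of its own, and strand would not separate these 2 genes. Whether strand was used in counting is not stated, so overlapping reads could not be assigned with certainty. By the fixed measure of likeness, Pearson's r of log2 CPM over the 6 libraries, FOXO1 (r = 0.996), PRRC1 (0.994) and CDKN3 (0.992) followed NFE2L2 most closely among 9327 genes of at least 10 CPM. Picked as the highest of so many values over 6 libraries, these r are a description and were not tested. None of the 3 genes passed between the fractions (edgeR BH-adjusted p = 0.0836, 0.0589 and 0.103).

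Of the 10 listed partners and regulators, 4 were higher and 1 was lower in BCSC (against 15.3% and 14.6% of all tested genes). Their median log2 fold change was 0.79 beside -0.05 over all genes. KEAP1, the adaptor that presents NRF2 for degradation, stood at 32.0, 25.5 and 21.3 CPM in BCSC and at 17.6, 10.9 and 16.3 CPM in non-BCSC. Its 3 BCSC values lay above all non-BCSC values, with a log2 fold change of 0.82 (SE 0.27, edgeR BH-adjusted p = 0.0458). SQSTM1, the autophagy receptor p62 that can sequester KEAP1, rose from 156 ± 38.1 to 333 ± 60.7 CPM (SD, n = 3 per group). MAFG, a small MAF partner, was higher by 0.93 and NFE2L1, a related stress factor, by 1.42 on the log2 scale. CUL3, the ubiquitin ligase scaffold that works with KEAP1, was lower at 250 ± 9.6 against 337 ± 13.7 CPM. BACH1, a repressor at the same DNA elements, gave 62.6 ± 1.87 and 57.3 ± 10.1 CPM with overlapping libraries (log2 fold change 0.13, edgeR BH-adjusted p = 0.567). Per kb, the ratio of KEAP1 to NFE2L2 was 0.144 ± 0.0355 in BCSC and 0.0648 ± 0.0191 in non-BCSC, separate in every library. The exact two-sided permutation p was 0.1, the smallest that 20 groupings of 3 against 3 allow, and 0.15 after BH adjustment over the 9 derived measures. The ratio was taken without a GC and length correction. Background would account for 11.8% to 27.2% of the KEAP1 counts in non-BCSC, and the depth behind KEAP1 there was only 123 to 213 counts. The lower call of the list went to 0 without non-BCSC replicate 2 and with the GC and length correction. Its 4 higher calls became 3 after background removal. They also became 3 when BCSC replicate 1, BCSC replicate 2, non-BCSC replicate 2 or non-BCSC replicate 3 was dropped. Dropping either remaining library left 4, as did the GC and length correction. These counts do not name the gene that was lost, so whether it was KEAP1 is not known.

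Glutathione synthesis begins with glutamate-cysteine ligase, whose catalytic subunit is GCLC and whose modifier subunit is GCLM, and GCLC showed the widest gap among the genes that passed. GCLC (ENSG00000001084, chr6:53362139-53481768, minus strand) stood at 149, 177 and 158 CPM in BCSC and at 569, 547 and 460 CPM in non-BCSC. The lowest non-BCSC library thus lay far above the highest BCSC library. GCLC was 3.26-fold lower in BCSC (log2 fold change -1.70, SE 0.12, edgeR BH-adjusted p = 6.1e-05), and the 95% interval ran from -1.97 to -1.44. GCLM (ENSG00000023909, chr1:94350755-94375012, minus strand) stood at 148, 195 and 233 CPM in BCSC and at 340, 347 and 370 CPM in non-BCSC. The non-BCSC libraries were close together, and every BCSC library lay below them. Its log2 fold change was -0.88 (SE 0.15, edgeR BH-adjusted p = 0.00383).

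The balance of the subunits is given as a ratio, which follows from the levels above. Per kb, the ratio of GCLM to GCLC was 0.733, 0.814 and 1.08 in BCSC, against 0.440, 0.467 and 0.593 in non-BCSC. All 3 BCSC ratios were the higher, with an exact two-sided permutation p of 0.1, the smallest possible (0.15 after BH adjustment over 9 measures).

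Other genes of glutathione handling were split. Of 13 listed, 10 were tested, 5 were higher and 2 lower (against 15.3% and 14.6% of all tested genes), with a median log2 fold change of 0.55. GSTP1, a glutathione transferase, rose from 33 ± 8.64 to 85.1 ± 22.1 CPM, and SLC3A2, the partner chain of SLC7A11, rose from 37.1 ± 17 to 93.2 ± 26.9 CPM. GPX8, a peroxidase of the endoplasmic reticulum, was higher by 0.63 and GSS, which completes glutathione synthesis, by 0.84 on the log2 scale. GLRX, a glutaredoxin, was lower at 18.5 ± 3.1 against 39.9 ± 6.14 CPM. GSR, which regenerates reduced glutathione, was lower by a log2 fold change of -0.38 (edgeR BH-adjusted p = 0.0376). After removal of the olfactory receptor background 1 gene of the list passed as higher and 4 as lower, and with the GC and length correction 2 passed as higher and 0 as lower. The higher calls fell to 3 without BCSC replicate 1 or non-BCSC replicate 3 and to 2 without non-BCSC replicate 2, and the lower calls fell to 1 in every fit that left out 1 library except that without non-BCSC replicate 3.

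SLC7A11 (ENSG00000151012, chr4:139085251-139163503, minus strand), the transport chain of the cystine and glutamate exchanger, did not pass. It stood at 389, 583 and 556 CPM in BCSC and at 506, 523 and 522 CPM in non-BCSC. The non-BCSC libraries lay within the range of the BCSC libraries, of which replicate 1 was the low one. The log2 fold change was -0.02 (SE 0.14, 95% interval -0.34 to 0.30, edgeR BH-adjusted p = 0.924). The sign changed in 5 of the fits that left out 1 library or dropped the filter, and the gene passed as higher only under a GC and length correction of all genes. Its ratio per kb to SLC3A2 was 0.678, 1.59 and 1.58 in BCSC, against 1.95, 3.61 and 4.74 in non-BCSC, all BCSC values being the lower (exact permutation p = 0.1, the smallest possible, and 0.15 after BH adjustment). This ratio was taken without that correction, and GC content was 35.4% for SLC7A11 and 56.4% for SLC3A2.

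TXNRD1 (ENSG00000198431, chr12:104609557-104744085, plus strand), the cytosolic thioredoxin reductase, stood at 890, 1001 and 927 CPM in BCSC and at 1239, 1248 and 1094 CPM in non-BCSC. The fractions were separate, with BCSC replicate 2 the nearest to non-BCSC replicate 3. Its log2 fold change was -0.35 (SE 0.09, edgeR BH-adjusted p = 0.0230). The call held in 2 of 6 fits that left out 1 library, where the edgeR adjusted p ran from 0.0349 to 0.127. TXN, the thioredoxin it reduces, also fell, from 550 ± 83.6 CPM in non-BCSC to 351 ± 59 CPM in BCSC. The ratio of TXN to TXNRD1 per kb overlapped between the fractions (1.91 ± 0.332 and 2.34 ± 0.199, exact permutation p = 0.2).

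SRXN1 (ENSG00000271303, chr20:627259-633844, minus strand), the sulfiredoxin that repairs overoxidized peroxiredoxins, could not be read from its own counts. It stood at 56.5, 42.5 and 40.6 CPM in BCSC and at 52.2, 0 and 0 CPM in non-BCSC. A count of 0 in those 2 libraries allows up to 3 counts, or 0.263 and 0.303 CPM, by counting error alone. The fit gave a log2 fold change of 1.41 with an SE of 1.92 (edgeR BH-adjusted p = 0.621). A readthrough transcript of another annotated gene on the same strand (ENSG00000270299, chr20:627270-656444) spans SRXN1 and showed the opposite pattern. It held 468 counts in non-BCSC replicate 2, 405 in replicate 3 and 0 in the other 4 libraries.

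With the readthrough counts added, a choice made after its values were seen, SRXN1 came to 56.5, 42.5 and 40.6 CPM in BCSC and to 52.2, 41.3 and 38.8 CPM in non-BCSC. The fractions then overlapped, with means of 46.5 ± 8.65 and 44.1 ± 7.12 CPM and a log2 fold change of 0.08 (SE 0.19, edgeR BH-adjusted p = 0.787). Without non-BCSC replicate 1, SRXN1 alone passed as higher (edgeR BH-adjusted p = 0.000544), and its fitted log2 fold change of 12.44 is no bound because both libraries left held 0 counts.

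**Figure D2:**
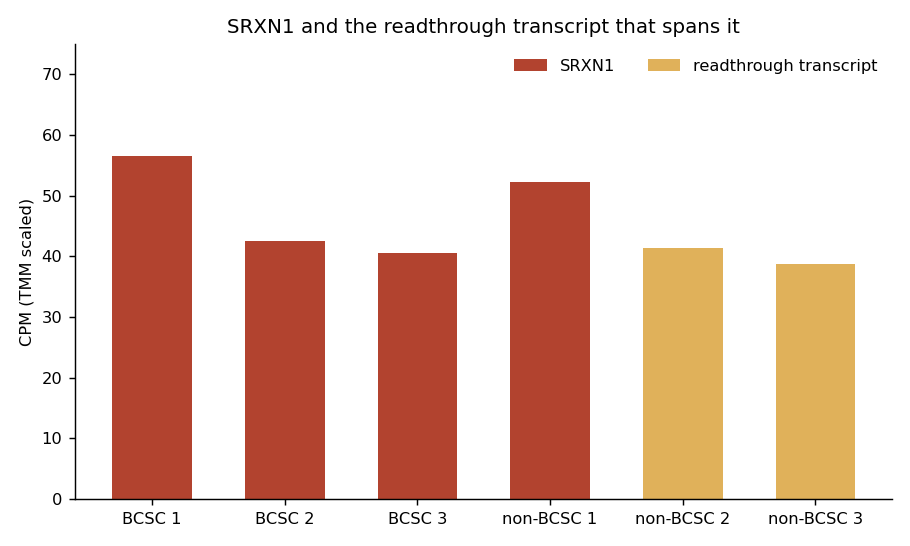
SRXN1 (red) and the readthrough transcript that spans it (yellow) in each of the 6 libraries, as stacked bars in CPM with TMM scaling from 0. Non-BCSC replicates 2 and 3 carry 41.3 and 38.8 CPM on the readthrough transcript and 0 on SRXN1, and the stacked totals of the 6 libraries lie between 38.8 and 56.5 CPM.

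Among the 14 genes for thioredoxin, peroxiredoxins and peroxide removal, 4 were higher and 3 lower (against 15.3% and 14.6% of all tested genes). Their median log2 fold change was 0.14. SOD2, the mitochondrial superoxide dismutase, rose from 138 ± 3.46 to 358 ± 33.7 CPM. SESN2, a sestrin induced by stress, rose from 3.77 ± 1.25 to 16.4 ± 4.36 CPM. However, background could make up 39.2% to 121% of its non-BCSC counts. PRDX2 was higher by 1.23 and the mitochondrial thioredoxin TXN2 by 1.14 on the log2 scale. PRDX1, a cytosolic peroxiredoxin, was lower at 274 ± 25.9 against 365 ± 49.5 CPM, and CAT, the catalase, at 49.2 ± 5.9 against 67.2 ± 3.4 CPM. The split of this list was 7 higher and 0 lower with the GC and length correction, and 2 higher and 5 lower after background removal. Its lower calls went to 0 without BCSC replicate 2, without non-BCSC replicate 1 or without non-BCSC replicate 2, and to 1 without BCSC replicate 1 or 3.

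NQO1 (ENSG00000181019, chr16:69740899-69760571, minus strand), which reduces quinones without releasing radicals and is a standard readout of NRF2 activity, was the other gene called over 2-fold. It stood at 525, 524 and 518 CPM in BCSC and at 1417, 1325 and 1116 CPM in non-BCSC. The BCSC libraries were nearly level, with a coefficient of variation of 0.815%, and even the lowest non-BCSC library lay well above them. NQO1 was 2.46-fold lower in BCSC (log2 fold change -1.30, SE 0.11, edgeR BH-adjusted p = 0.000116). Its ratio to NFE2L2 per kb was 2.90 ± 0.268 in BCSC and 5.58 ± 0.418 in non-BCSC, separate in every library (exact permutation p = 0.1, the smallest possible, and 0.15 after BH adjustment).

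The other detoxification targets of NRF2 held the widest drop of any pathway list. Of 13 listed, 12 were tested, 5 were lower and 1 was higher, and all 6 were past the 2-fold line. Over all tested genes 11.3% were called lower and 8.85% higher past that line. AKR1B10, an aldo-keto reductase, fell from 151 ± 44.7 CPM in non-BCSC to 11.4 ± 3.53 CPM in BCSC, a log2 fold change of -3.73 (SE 0.28, edgeR BH-adjusted p = 8.64e-05). AKR1C1, AKR1C2 and AKR1C3, reductases of steroids and carbonyls, had log2 fold changes of -2.55, -2.84 and -2.34. The first and second of these are near-identical in sequence, so the division of reads between them is uncertain. AKR1C3 stood at 74.4 ± 6.84 CPM in BCSC and 377 ± 37.6 CPM in non-BCSC. AKR1B1, the aldose reductase, went the other way, from 26.3 ± 3.54 to 62.7 ± 17.5 CPM. The median of the list was only -0.17, since the other 6 tested genes did not pass and ranged about 0.

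NADPH feeds thioredoxin reductase, glutathione reductase and NQO1. Of 6 genes for its supply, 2 passed and both were lower, against 14.6% of all tested genes. These were PGD, of the pentose phosphate pathway, at 130 ± 26.5 against 392 ± 83.5 CPM, and IDH1, the cytosolic isocitrate dehydrogenase, at 58.6 ± 2.79 against 119 ± 10.6 CPM.

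HMOX1 (ENSG00000100292, chr22:35776354-35790207, plus strand), which opens the heme ring and releases iron, had the lowest mean of the 9 genes per kb in both fractions, although in non-BCSC replicates 2 and 3 SRXN1, listed at 0, lay below it. It stood at 15.6, 7.18 and 8.23 CPM in BCSC and at 4.21, 8.57 and 4.12 CPM in non-BCSC. Non-BCSC replicate 2 lay above BCSC replicates 2 and 3, so the fractions overlapped. The log2 fold change was 0.87 (SE 0.46, 95% interval -0.16 to 1.91, edgeR BH-adjusted p = 0.176), and it turned to -0.32 with a GC and length correction. The depth was 43 to 97 counts per non-BCSC library.

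Among 13 genes of iron and heme handling, 3 were higher and 2 lower (against 15.3% and 14.6% of all tested genes), with a median of -0.07. FTH1, the ferritin heavy chain that stores iron, fell from 2179 ± 425 CPM in non-BCSC to 1270 ± 261 CPM in BCSC (log2 fold change -0.78, SE 0.18, edgeR BH-adjusted p = 0.0117). FTL, the light chain, gave 795 ± 129 and 858 ± 234 CPM and did not pass. TFRC, the transferrin receptor that brings iron in, gave 1314 ± 76 and 1306 ± 55.9 CPM (log2 fold change 0.01, SE 0.09). SLC39A14, a metal importer, was higher by 0.88, STEAP3, an iron reductase, by 1.14 and HMOX2, the constitutive heme oxygenase, by 1.64 on the log2 scale. HMOX2 rested on 13 ± 3.62 against 4.17 ± 2.31 CPM, and background would make up 33.4% to 273% of its non-BCSC counts. IREB2, an iron-sensing regulator of mRNAs, was lower with a log2 fold change of -0.40. After background removal the balance of the list turned to 1 higher and 4 lower. The higher calls fell to 1 without BCSC replicate 1 or non-BCSC replicate 3, and the lower calls fell to 0 without non-BCSC replicate 2 and to 1 without any other library except BCSC replicate 3.

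GPX4 (ENSG00000167468, chr19:1103981-1106790, plus strand), the selenoenzyme that reduces lipid peroxides, stood at 86.3, 64.0 and 63.4 CPM in BCSC and at 108, 82.0 and 71.1 CPM in non-BCSC. BCSC replicate 1 lay above non-BCSC replicates 2 and 3. The log2 fold change was -0.29 (SE 0.19, 95% interval -0.71 to 0.13, edgeR BH-adjusted p = 0.268). With the background removed it passed as lower at -0.67 (edgeR BH-adjusted p = 0.0251). With a GC and length correction it passed at -1.70 (edgeR BH-adjusted p = 0.000274). GPX4 had the highest GC content of the 9 genes, 62.2%, against 35.4% for SLC7A11, the lowest. Of the 6 genes for selenoprotein synthesis none passed by edgeR in either direction, none had an unadjusted p under 0.05, DESeq2 also gave 0, and their median was 0.04, but 2 passed as higher under the same GC and length correction.

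Ferroptosis defence outside GPX4 held changes in both directions. Of 8 genes tested, 2 were higher and 2 lower (against 15.3% and 14.6% of all tested genes), with a median of 0.13. AIFM2, the ferroptosis suppressor FSP1 that regenerates reduced coenzyme Q, rose from 10.3 ± 2.73 to 25 ± 6.82 CPM, and GCH1, which starts tetrahydrobiopterin synthesis, from 18.5 ± 4.26 to 36.7 ± 4.58 CPM. SCD and ACSL3, which make and activate monounsaturated fatty acids, fell from 1698 ± 225 to 318 ± 25 CPM and from 824 ± 25.1 to 290 ± 19.5 CPM. Their log2 fold changes were -2.42 and -1.50. With the background removed neither AIFM2 nor GCH1 passed as higher. The higher calls of the list also fell to 1 without BCSC replicate 1 and to 0 without BCSC replicate 2, and rose to 4 with the GC and length correction.

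Of 12 genes that promote or mark ferroptosis, 8 were tested, 3 were lower and 1 was higher (against 14.6% and 15.3% of all tested genes). Their median was -0.16. ACSL4, which loads polyunsaturated fatty acids into membranes, was lower at 198 ± 22.6 against 308 ± 20.7 CPM, and SAT1, a polyamine acetyltransferase, at 28.0 ± 0.486 against 103 ± 32.2 CPM. NOX4 was also lower, but at 5.52 ± 1.79 CPM in non-BCSC it lay at the background of that fraction (79.2% to 105% of its counts). CHAC1, a glutathione-degrading enzyme induced by amino acid shortage, passed as higher at 6.58 ± 3.29 against 1.34 ± 0.926 CPM, and background would make up 106% to 180% of its non-BCSC counts. No gene of this list passed as higher without BCSC replicate 1, BCSC replicate 2 or non-BCSC replicate 2, or with the GC and length correction, which also left 1 lower call. Over all 9 pathway lists 87 of 95 genes were tested, and the shares over all tested genes were 15.3% higher and 14.6% lower. Of the 87, 20 were higher and 20 lower, and their median log2 fold change was 0.08. That even split did not hold in other fits, with 9 higher and 26 lower after background removal, 25 and 15 with the GC and length correction, and between 12 and 21 higher and 12 and 18 lower with 1 library left out.

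**Figure D3:**
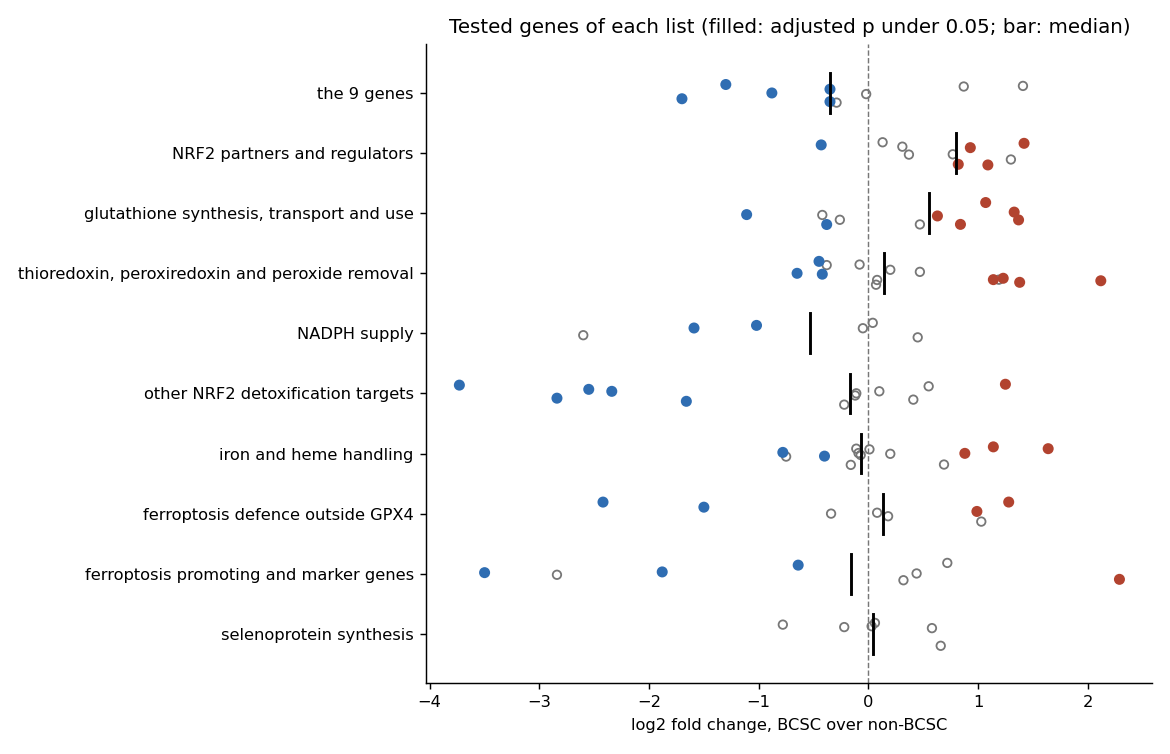
Log2 fold change of BCSC over non-BCSC (x axis) for the 9 genes and for each tested gene of the 9 pathway lists (1 line per list), with genes of adjusted p under 0.05 filled (red higher, blue lower), other genes open and the list median as a black bar. The filled points of the 9 genes all lie below 0, those of the detoxification targets reach -3.73, and the NRF2 partners and regulators have 4 filled points above 0 and 1 below.

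Levels between genes were compared per kb of transcript. In BCSC TXNRD1 was the highest at 251 ± 15.1 CPM per kb, above NQO1 at 210 ± 1.71. In non-BCSC the order was turned, with NQO1 at 516 ± 61.9 and TXNRD1 at 319 ± 22.9 CPM per kb, again with no overlap of libraries. GCLC came next in non-BCSC at 148 ± 16.3 CPM per kb, where its lowest library (130) lay just above the highest GPX4 library (129). In BCSC GCLC was at 45.5 ± 4 CPM per kb and could not be told from SLC7A11 (52.8 ± 10.9) or GCLM (39.9 ± 8.81), whose ranges overlapped its own. GPX4 and NFE2L2 overlapped in both fractions, at 85.3 ± 15.6 and 72.8 ± 7.32 CPM per kb in BCSC and at 104 ± 22.6 and 92.5 ± 8.69 in non-BCSC. SRXN1 and HMOX1 had the lowest means in each fraction, with 18.4 ± 3.42 and 6.63 ± 2.94 CPM per kb in BCSC.

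The gene sums rested on transcript counts that were far less stable. The 9 genes had 132 annotated transcripts on file, of which 86 held a count and 51 were tested. Only NQO1-201, the main NQO1 transcript, passed edgeR's test at the transcript level (log2 fold change -1.21, SE 0.12, BH-adjusted p = 0.0368), where 0.81% of 45898 transcripts passed. At an unadjusted p under 0.05 there were 10, and DESeq2 passed 8. The replicate spread was wide, with a biological coefficient of variation of 1.02 for transcripts and 0.453 for genes.

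TXNRD1 shows the difference. Its leading transcript TXNRD1-210 took 32.6%, 83.3% and 17.8% of the gene's counts in BCSC, against 65.3%, 8.34% and 75% in non-BCSC. These shares follow neither fraction, and the coefficient of variation of TXNRD1-210 in CPM was 82.7% in BCSC and 71.0% in non-BCSC, while that of the gene sum was 6.03% and 7.2%. For GCLC, GCLC-205 took 9.08%, 11% and 16.5% in BCSC, against 11.8%, 43.0% and 44.9% in non-BCSC, which overlapped (exact permutation p = 0.2). NQO1-203 took 15.3% ± 7.27 and 16.4% ± 3.63 of NQO1, also with overlap (exact permutation p = 0.9).

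For HMOX1, the transcript annotated for nonsense-mediated decay, HMOX1-203, took 0.633%, 0% and 0% of the counts in BCSC, against 88.2%, 41.2% and 97.7% in non-BCSC. The protein-coding HMOX1-201 took 98.7%, 93.6% and 99.3% in BCSC, against 0%, 58.8% and 0% in non-BCSC. The fractions were separate for both (for HMOX1-203, exact permutation p = 0.1, the smallest possible, and 0.15 after BH adjustment). HMOX1-203 was a transcript of 40 to 45 counts per non-BCSC library, and the background share of the HMOX1 counts there was as given above.

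**Figure D4:**
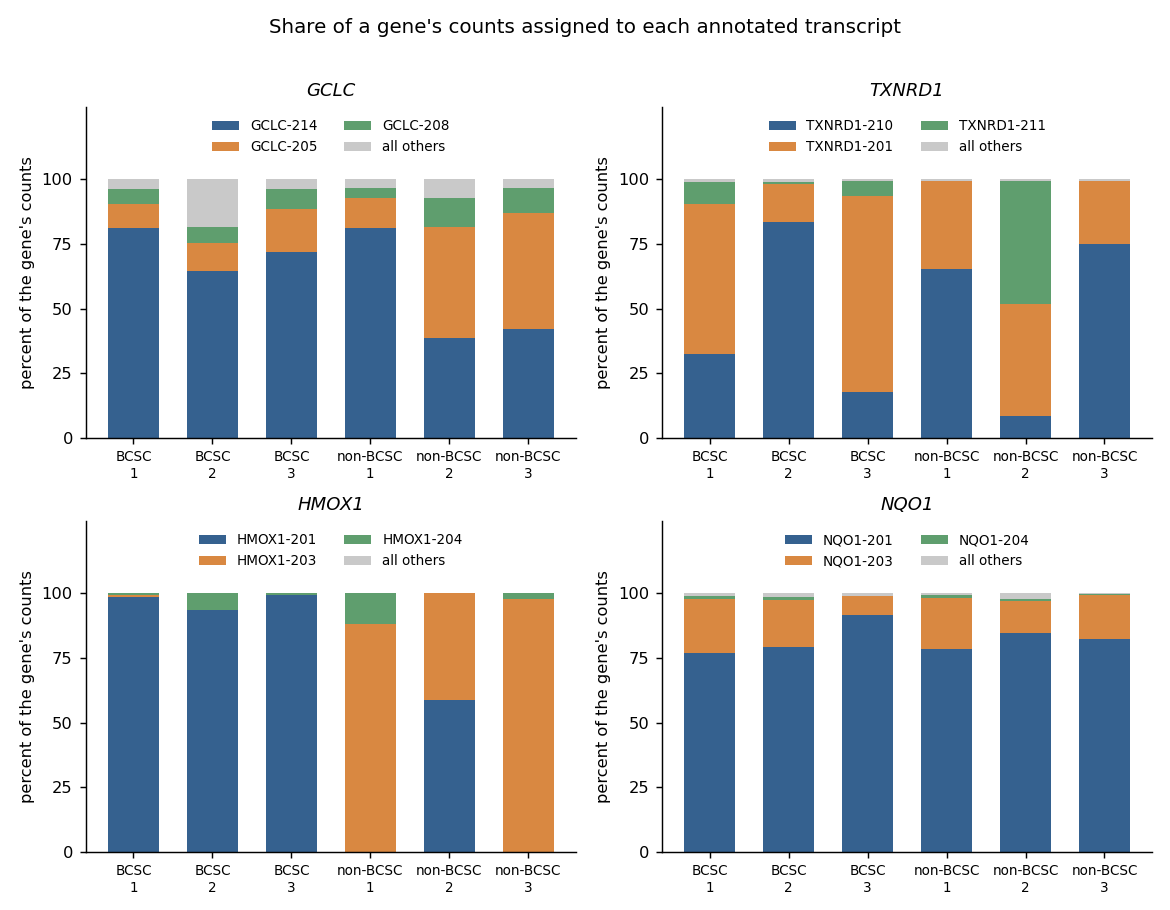
Percent of the counts of GCLC, TXNRD1, HMOX1 and NQO1 (y axis) assigned to their 3 leading annotated transcripts and to all others, as stacked bars for each library. TXNRD1-210 ranges from 8.34% to 83.3% with no relation to the fraction, HMOX1 is mostly HMOX1-201 in BCSC and mostly HMOX1-203 in non-BCSC replicates 1 and 3, and NQO1-201 leads in every library.

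The calls depended unevenly on how GC content, transcript length and background were treated. With the olfactory receptor background removed, the 5 calls held and the log2 fold changes were larger, with GCLC at -2.10, NQO1 at -1.70, GCLM at -1.27, TXNRD1 at -0.75 and NFE2L2 at -0.70. A loess correction for GC content and length over all tested genes moved the median of all genes from -0.05 to 0.27. Under it GCLC still passed as lower (-0.77, edgeR BH-adjusted p = 0.022) but short of the 2-fold line, and NQO1 did not pass (-0.28, edgeR BH-adjusted p = 0.403). GCLM (0.21) and TXNRD1 (0.42) changed sign without passing, and NFE2L2 (0.93) and SLC7A11 (1.06) passed as higher. Relative to the shifted median GCLC was at -1.04, NQO1 at -0.55, GCLM at -0.06, TXNRD1 at 0.15, NFE2L2 at 0.66 and SLC7A11 at 0.79.

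The same correction fitted only to 5661 genes whose counts averaged 500 or more, added after the data were seen, gave a different picture. GCLC (-1.79), NQO1 (-1.36), GCLM (-0.86), TXNRD1 (-0.49) and NFE2L2 (-0.34) were then all lower past the test, as was GPX4 (-1.20, edgeR BH-adjusted p = 3.14e-06). SLC7A11 had an adjusted p of 0.972 there by edgeR. GCLC was the 1 gene of the 9 that passed as lower in all 19 alternatives, while NQO1 and GCLM did so in 18 of 19, the correction over all genes being the exception.

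**Figure D5:**
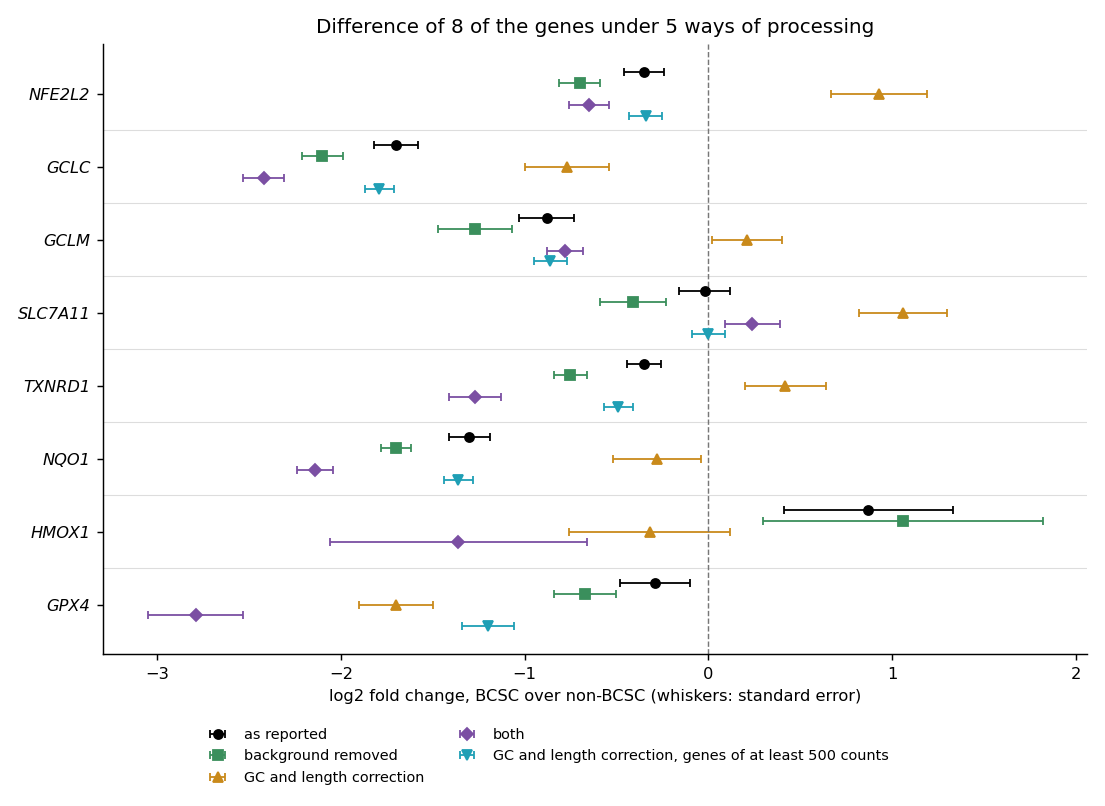
Log2 fold change of BCSC over non-BCSC (x axis, whiskers give the SE) for 8 of the genes as reported, with the background removed, with a GC and length correction, with both, and with that correction on genes of at least 500 counts only (HMOX1 is not among them). GCLC lies below 0 in all 5 (-2.42 to -0.77), whereas NFE2L2, GCLM and TXNRD1 lie above 0 with the correction over all tested genes and below 0 otherwise.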

How the data were processed

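LncRNA sequencing libraries of sorted BCSC and non-BCSC (3 each, grouped by sample title) were analysed. The authors deposited estimated counts per transcript in whole numbers, not normalized. The submitters' processing notes list HISAT2, featureCounts, DESeq2 and hg38 with no role, while the study's RNA-seq methods name HISAT2 and hg19. How reads were assigned to transcripts, with which annotation release and whether by strand, is not given in the sources used here, although the library protocol keeps strand. Of 252618 transcripts, 249618 (98.8%, holding 99.73% of counts) matched GENCODE v44 lifted to GRCh37 by identifier, and their counts were summed per gene. All gene coordinates are GRCh37.

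Genes were tested with edgeR 4.0.16 (R 4.3.3, filterByExpr, TMM, robust quasi-likelihood fit, group only) and BH over all genes, and transcripts likewise. Derived ratios were compared by exact permutation (scipy 1.17.1), without GC and length correction or background removal. Levels per kb divide by the mean length of a gene's transcripts weighted by their counts. Background was taken as the counts per kb of 407 olfactory receptor genes in a library, and GC and length were corrected by loess (span 0.3) per library. The test was tried on simulated counts that held no GC, length or background difference between the groups, and its outcome is not given here. Replicate pairs within a group differed by more than counting error (chi-square per degree of freedom 15.2 to 42.1). Limits for a count of 0 cover counting error only, since reads carry no molecular identifiers.

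The genes and lists were chosen with earlier results of these data known. Named were the 9 genes, up to 4 genes per direction with the smallest p in each of 9 pathway lists (regulators, glutathione, thioredoxin and peroxide, NADPH, detoxification, iron and heme, other ferroptosis defence, ferroptosis promoters and markers, selenoprotein synthesis), further genes whatever their values (KEAP1, BACH1, SQSTM1, FTH1, FTL, AIFM2, ACSL4, TXN and TFRC, with 1 more that is not reported here), and the 3 genes most like NFE2L2. The marker lists checked the cells. Alternatives were RLE size factors, DESeq2 1.42.0, other filters, a replicate block, each library left out, protein-coding transcripts only, GC and length correction, background removal, thinning and no robust fitting. Those chosen after seeing the data were the SRXN1 readthrough, background removal with GC and length correction, and a minimum mean of 500 counts with and without that correction.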

Additional observations from a re-analysis of the deposited data

How the results depend on the processing

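The count of genes passing as lower in BCSC, 5 as reported, was 5 with RLE size factors, with DESeq2 and with the replicate block. It was 3 with no filter on low counts and 3 to 4 with 1 library left out (3 without BCSC replicate 1 or 2 or without non-BCSC replicate 1 or 2). With the GC and length correction it was 2, GCLC and GPX4, of which GPX4 was not among the 5. The 0 genes higher became 2 with the correction and 0 to 1 with 1 library left out (SRXN1, without non-BCSC replicate 1). Over 2-fold lower were 1 gene with the correction, 4 with the correction after background removal, and 2 to 3 with 1 library left out. The 1 gene with the correction was GPX4 (-1.70), while GCLC (-0.77) and NQO1 (-0.28) lost their 2-fold calls. Over 2-fold higher were 1 with the correction and 0 to 1 with 1 library left out. Signs reversed with the correction for NFE2L2 (0.93), HMOX1 (-0.32), GCLM (0.21), SLC7A11 (1.06) and TXNRD1 (0.42), and for SRXN1 with the readthrough (-0.18, or -0.27 after background removal instead). With background removal and the correction together they reversed for HMOX1 (-1.36), SLC7A11 (0.24) and SRXN1 (-0.08). SLC7A11 was also positive with no filter (0.05) and ran from -0.10 to 0.14 with 1 library left out. Member transcripts passing numbered 1 by edgeR and 8 by DESeq2. The cause of these changes was not tested. The median log2 fold change of all genes was -0.14 with RLE size factors and DESeq2, 0.18 after background removal, -0.38 after both corrections, -1.02 with no filter and -0.27 to -0.07 with 1 library left out. Of all calls 51.2% were higher as reported, 74.5% with the correction, 40.5% with DESeq2 and 26.2% after both. Whether the shared replicate numbers pair the samples could not be settled from these libraries. Deviations of same-numbered libraries correlated at 0.179, 0.0143 and 0.219, and those of other pairs at -0.2 to 0.0544. BCSC replicate 2 correlated best with non-BCSC replicate 1 (0.0544), whereas BCSC replicates 1 and 3 correlated best with their own number. The replicate block changed none of the calls of the 9 genes (TXNRD1 -0.34, edgeR BH-adjusted p = 0.0103). With it, calls over all genes went to 3788 higher and 3196 lower from 3125 and 2978. The counts of list genes moved by over 1.5 times for 10 of 18 list and direction pairs with the correction, 7 with background removal, 1 with DESeq2 and 2 to 7 with 1 library left out (7 when BCSC replicate 1, 5 when BCSC replicate 2 and 6 when non-BCSC replicate 2 was left out). Depth limits HMOX1 most, at 43 to 97 counts per non-BCSC library.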
